A study of Mus musculus with 25 samples.

Results

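The circadian clock genes Dbp, Nr1d1, Nr1d2, Per1, Per2, Per3, Clock, Npas2, Hlf and Tef were followed in mouse lung after bleomycin. These 10 genes, of 18193 with a symbol of their own on the array, were taken from 26 of the 34945 probe sets that carry 1 gene symbol alone. A probe set is a group of short DNA probes for 1 transcript, and its intensity is the brightness of the labelled RNA bound to it. Whole-lung RNA of 25 female mice was hybridised to Affymetrix mouse 430 2.0 arrays. FP-KO mice lack FP, the prostaglandin F2α receptor (gene Ptgfr). Their lungs, 4 on each day, were taken on Day 0, Day 7 and Day 14, as were those of wild-type (WT) mice, 4 on Day 0, 4 on Day 7 and 5 on Day 14. Both genotypes were given bleomycin, a chemotherapy agent known for scarring the lung, through the trachea on Day 0 (1 mg/kg in 40 ul saline). The Day 0 lungs are labelled as the baseline. The strain, the age, the allele, the hour of collection and any batch are not stated in the labels. The titles number the mice, and an array was counted as a separate animal on that ground alone.

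The clock is a loop of transcription that runs in almost every cell. CLOCK, or its relative NPAS2, pairs with ARNTL (BMAL1) on E-box sequences and switches on the Per and Cry genes, whose proteins then shut the pair off. The receptors NR1D1 and NR1D2 (REV-ERBα and β) repress Arntl, and DBP, HLF and TEF carry the rhythm to other genes through D-box sequences, so that their RNA in most organs depends on the hour. Per1 is also known to respond within hours to glucocorticoids and other outside signals. In the lung the clock is known for gating inflammation.

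The promoters of the genes were searched for these sequences. Shown are a window of each gene that holds one, and that of Dbp, which holds none and was among the genes that fell most on Day 7. Each window runs from 250 bases before to 50 after a RefSeq gene start (GRCm38.p6), 5′ to 3′ on the gene's strand, and 13 windows matched 9 of the 10 genes, with none for Per2. Capitals mark a match, and both strands were searched.
Per1 (chr11:69098699-69098998, plus strand): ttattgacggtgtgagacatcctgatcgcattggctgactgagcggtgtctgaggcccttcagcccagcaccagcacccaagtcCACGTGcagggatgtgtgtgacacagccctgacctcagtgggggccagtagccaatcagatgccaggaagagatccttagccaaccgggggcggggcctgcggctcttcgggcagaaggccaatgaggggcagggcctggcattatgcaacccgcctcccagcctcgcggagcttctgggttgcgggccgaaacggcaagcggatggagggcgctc
Tef (chr15:81802423-81802722, plus strand): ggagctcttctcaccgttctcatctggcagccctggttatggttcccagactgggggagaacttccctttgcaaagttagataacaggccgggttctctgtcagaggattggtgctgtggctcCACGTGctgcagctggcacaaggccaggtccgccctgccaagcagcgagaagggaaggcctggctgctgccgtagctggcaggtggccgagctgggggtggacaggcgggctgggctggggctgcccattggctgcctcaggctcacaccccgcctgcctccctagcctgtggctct
Per3 (chr4:151044616-151044915, minus strand): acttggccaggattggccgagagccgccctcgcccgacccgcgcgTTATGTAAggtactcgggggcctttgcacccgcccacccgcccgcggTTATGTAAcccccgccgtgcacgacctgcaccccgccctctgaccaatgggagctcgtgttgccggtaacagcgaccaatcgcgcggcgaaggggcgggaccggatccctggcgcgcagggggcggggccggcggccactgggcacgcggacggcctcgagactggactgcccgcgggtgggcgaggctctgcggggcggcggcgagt
Dbp (chr7:45704997-45705296, plus strand): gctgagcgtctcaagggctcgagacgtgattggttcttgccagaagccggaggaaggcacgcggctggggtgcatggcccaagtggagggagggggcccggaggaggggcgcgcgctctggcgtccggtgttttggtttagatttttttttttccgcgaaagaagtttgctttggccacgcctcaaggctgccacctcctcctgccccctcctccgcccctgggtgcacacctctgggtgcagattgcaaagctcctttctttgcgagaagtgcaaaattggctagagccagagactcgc
The E-box CACGTG starts 166 bases before the Per1 start and 127 bases before this Tef start, and another Tef window also holds it, 138 bases before its start. Of 32851 windows over all genes, 7.15% hold this E-box. The D-box TTANGTAA lies 205 and 158 bases before the Per3 start, and 2.32% of all windows hold it. The RORE, the longer motif read by RORA and by NR1D1 and NR1D2, is in 0 of the 13 windows and in 1.6% of all windows. A match describes letters in these windows and is no measured binding.

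Values per lung are quantile-normalized intensities on the linear scale. Changes are on the log2 scale, with limma's standard error behind ±. The words rose, fell and passed are kept for a Benjamini-Hochberg adjusted p below 0.05. The adjustment ran across all 12062 tested genes, or across all 21403 tested probe sets where a single probe set is named. The number of arrays sets the precision. Of the 10 genes, 9 were bright enough to be tested, and Npas2 was not. Ptgfr read between 24.3 and 58.9 in the FP-KO lungs and between 127.0 and 361.0 in the WT lungs, without overlap. The lung markers Sftpb and Sftpc, the surfactant genes of alveolar type 2 cells, summed to between 47993 and 59934 over the 6 groups. On the first component of a principal component analysis without the clock and output genes (12034 genes), which holds 42% of the variance, FP-KO Day 14 No. 2 lies at -28.8, among the Day 0 lungs at -35.01 to -24.8. Its 18S ribosomal RNA read 6339, against 211.7 to 746.1 in the other FP-KO Day 14 lungs. On the second component, with 16.9%, the Day 14 lungs lie in 2 sets, and FP-KO No. 1 and 2 with WT No. 1 to 3 stand at 27.6 to 30.02, against -2.27 to 1.36 for FP-KO No. 3 and 4 with WT No. 4 and 5. The sources used here do not say what separates these sets, and results on Day 14 are therefore also given within each set.

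Most of the 9 genes were lower on Day 7 in both genotypes. By Day 14 the fall was still called in WT lungs but in none of the 9 in FP-KO lungs, where 1.41% of all genes fell. On Day 7 in FP-KO lungs 0 of 9 rose and 7 fell (Dbp, Nr1d1, Nr1d2, Per1, Per3, Hlf and Tef), where 10.7% of all genes tested fell, and the median change was -0.72, against 0.0024 over all genes. In WT lungs on Day 7, 0 rose and 6 fell (the same genes without Per1), where 18% of all genes fell, with a median of -0.84 against -0.01. On Day 14 in FP-KO lungs 0 rose and 0 fell in the limma test, and 1 had an unadjusted p under 0.05. Of all genes 3.26% passed in either direction, with 1.85% that rose and 1.41% that fell. Beside that share, 0 falls of 9 are near the background. The median of the 9 was -0.23, against 0.01 over all genes. On Day 14 in WT lungs 0 rose and 5 fell (Dbp, Nr1d1, Nr1d2, Per3 and Hlf), where 19.5% of all genes fell, with a median of -0.55 against -0.01. The comparisons within a genotype share their Day 0 lungs. In whole lung, fewer cells of a type and less RNA per cell cannot be told apart.

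**Figure D1:**
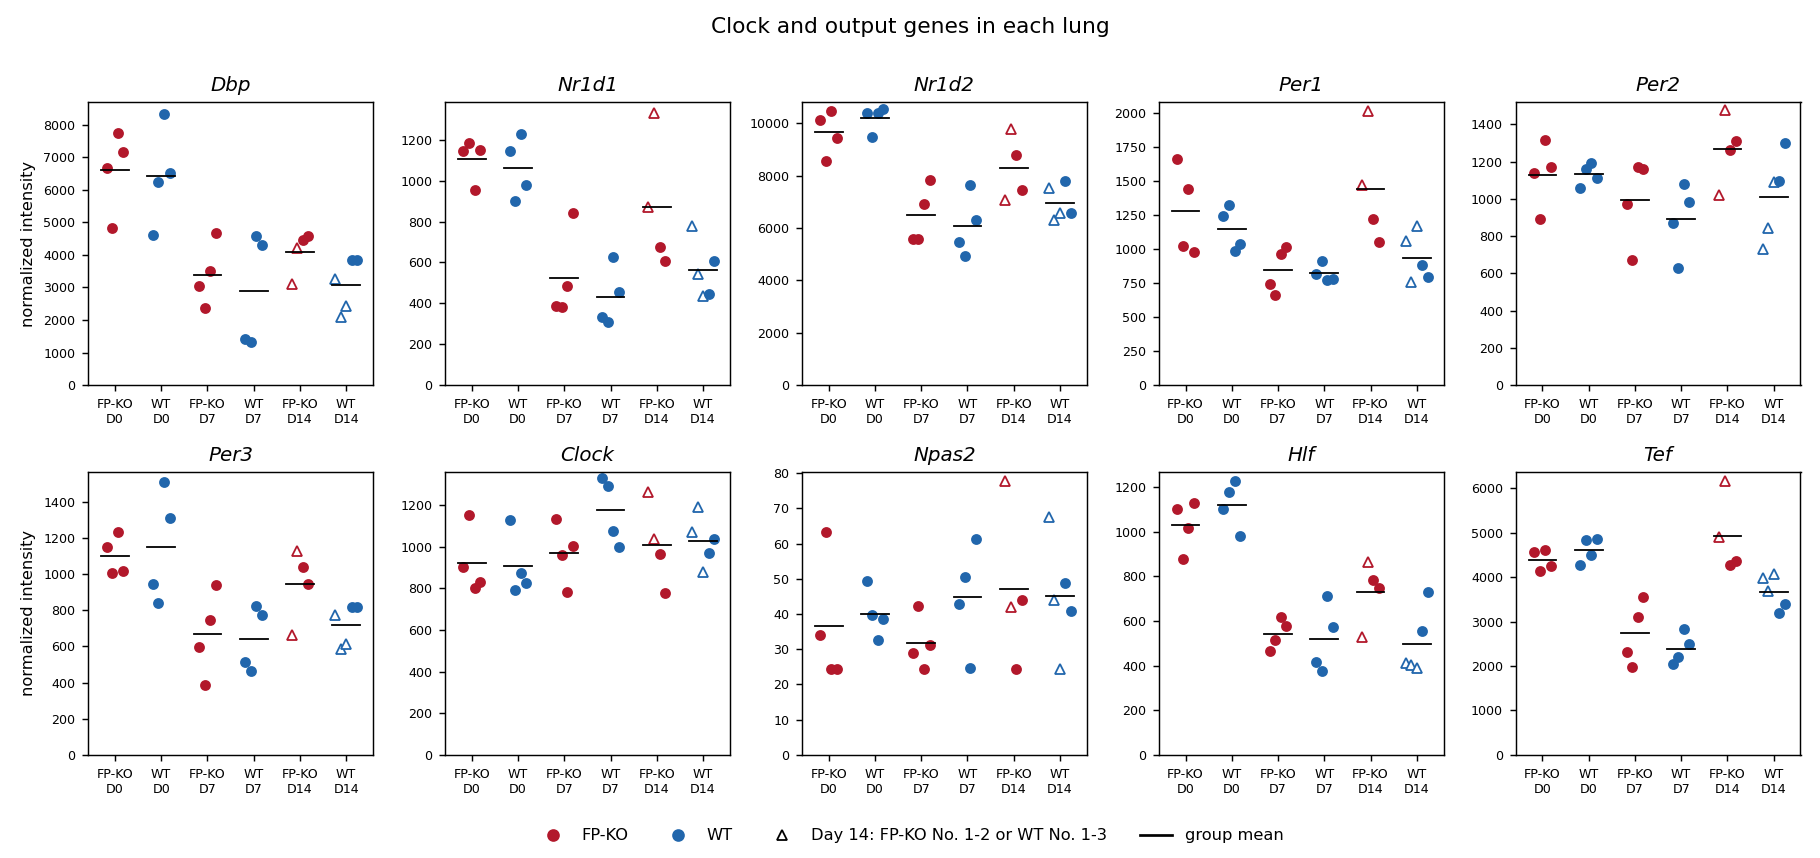
Normalized intensity (linear axis from 0) of the 10 genes in each of the 25 lungs, FP-KO in red and WT in blue, on Day 0 (D0), Day 7 (D7) and Day 14 (D14), with the group mean as a line. Open triangles are FP-KO No. 1 and 2 and WT No. 1 to 3 on Day 14. Dbp, Nr1d1, Nr1d2, Per3, Hlf and Tef lie lower on Day 7 than on Day 0 with no overlap in either genotype, and Npas2 reads at most 77.7.

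Nr1d1 encodes REV-ERBα, a haem-binding repressor of Arntl. On Day 0, Nr1d1 read 1143, 1184, 952 and 1149 in the 4 FP-KO lungs and 1144, 898, 1230.1 and 978 in the 4 WT lungs. On Day 7, Nr1d1 read 387, 379.7, 485 and 841 in FP-KO lungs and 335, 308, 624.7 and 453 in WT lungs. On Day 14, Nr1d1 read 873, 1333, 675 and 608 in FP-KO lungs and 778, 545, 435, 447 and 608 in the 5 WT lungs. All Day 7 lungs lay below all Day 0 lungs of their genotype, where 26.5% of all genes had no overlap in FP-KO and 35% in WT lungs, and on Day 14 this held for all WT lungs, while FP-KO No. 2, at 1333, exceeded every Day 0 lung. The Day 7 change was -1.16 ± 0.26 in FP-KO lungs (adjusted p = 0.00275) and -1.35 ± 0.26 in WT lungs (adjusted p = 0.000312). The Day 14 change was -0.41 ± 0.26 in FP-KO lungs (adjusted p = 0.402) and -0.94 ± 0.25 in WT lungs (adjusted p = 0.00438). Between Day 7 and Day 14 it rose in FP-KO lungs by 0.75 ± 0.26 (adjusted p = 0.0408), a call lost in 10 of 37 recomputations. These are the ones without No. 1, 2 or 3 of Day 7 or No. 1 or 2 of Day 14, under the replicate block (adjusted p = 0.059), without the filter on dim genes, with array weights, with only the groups of the contrast, and within FP-KO No. 3 and 4, where the difference was 0.37 (adjusted p = 0.49). The 37 also count fits without a WT or Day 0 lung, which can act on this call only through the spread shared by all groups. In WT lungs the difference between Day 7 and Day 14 was 0.41 ± 0.25 (adjusted p = 0.296).

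Nr1d2 encodes REV-ERBβ, the close relative of REV-ERBα. On Day 0, Nr1d2 read 10137, 8564, 10463 and 9446 in the 4 FP-KO lungs and 10394, 9460.3, 10378 and 10527 in the 4 WT lungs. On Day 7, Nr1d2 read 5572, 5596, 6925 and 7849 in FP-KO lungs and 5465, 4932, 7626 and 6322 in WT lungs. On Day 14, Nr1d2 read 7073, 9782, 8804 and 7463 in FP-KO lungs and 7539, 6321, 6576, 7779.6 and 6559 in the 5 WT lungs. The Day 7 lungs again lay wholly below the Day 0 lungs in both genotypes, and the FP-KO Day 14 lungs overlapped those of Day 0. Its changes were smaller than those of Nr1d1, but its spread was smaller too: the residual SD was 0.19 on the log2 scale for Nr1d2, against 0.39 for Nr1d1 and a median of 0.20 over all genes tested. On Day 7 it fell by 0.58 ± 0.13 in FP-KO lungs (adjusted p = 0.00296) and by 0.76 ± 0.13 in WT lungs (adjusted p = 0.000114). On Day 14 the change was -0.23 ± 0.13 in FP-KO lungs (adjusted p = 0.355) and -0.55 ± 0.13 in WT lungs (adjusted p = 0.00137). The WT call on Day 14 was lost with a mean over both Nr1d2 probe sets (-0.36, adjusted p = 0.0625). The dimmer Nr1d2 probe set 1416959_at did not pass in either genotype on either day, at -0.34 in FP-KO and -0.62 in WT lungs on Day 7, and at 0.23 in FP-KO and -0.17 in WT lungs on Day 14.

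The 3 Per genes, which encode the repressors that bind CLOCK and ARNTL, did not move alike. On Day 0, Per1 read 1665, 1025, 1444 and 978 in the 4 FP-KO lungs and 1245, 1329, 989 and 1039 in the 4 WT lungs. On Day 7, Per1 read 744, 659.7, 964 and 1018 in FP-KO lungs and 815, 917, 775 and 783 in WT lungs. On Day 14, Per1 read 1475, 2014, 1219.9 and 1052 in FP-KO lungs and 1063, 756, 1169.8, 887 and 792 in the 5 WT lungs. The Day 7 lungs overlapped those of Day 0 in FP-KO but not in WT, and the FP-KO Day 14 lungs lay wholly above those of Day 7 (19.6% of all genes had no such overlap), while WT lungs of Day 14 overlapped both earlier days. Per1 changed by -0.58 ± 0.20 in FP-KO lungs (adjusted p = 0.0355) and by -0.48 ± 0.20 in WT lungs (adjusted p = 0.0625) on Day 7, and its Day 7 call in FP-KO lungs was lost when No. 1 or 3 of Day 0, or No. 1 or 2 of Day 7, was left out, with a common median in place of quantile normalization, without the filter on dim genes and with only the groups of the contrast. From Day 7 to Day 14 it rose in FP-KO lungs by 0.75 ± 0.20 (adjusted p = 0.0108), a call lost without No. 2 of Day 14 (0.57, adjusted p = 0.0644), with array weights, with only the groups of the contrast, and within FP-KO No. 3 and 4 (0.44, adjusted p = 0.235). In WT lungs the same difference was 0.17 ± 0.19 (adjusted p = 0.595).

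Per2 encodes a repressor that the mouse clock needs for a lasting rhythm. On Day 0, Per2 read 1139.5, 890.0, 1318 and 1173 in the 4 FP-KO lungs and 1058, 1160.2, 1194 and 1113 in the 4 WT lungs. On Day 7, Per2 read 970.1, 672, 1172 and 1161 in FP-KO lungs and 870.0, 631, 1079 and 982 in WT lungs. On Day 14, Per2 read 1021, 1477, 1262 and 1313 in FP-KO lungs and 730.1, 843, 1091, 1094 and 1299 in the 5 WT lungs. Its groups overlapped between Day 0 and Day 7 in both genotypes. As a gene, Per2 passed in no comparison, with Day 7 changes of -0.21 ± 0.19 in FP-KO lungs (adjusted p = 0.461) and -0.37 ± 0.19 in WT lungs (adjusted p = 0.136), and Day 14 changes of 0.17 in FP-KO and -0.19 in WT lungs. The 95% interval on Day 7 runs from -0.60 to 0.19 in FP-KO and from -0.77 to 0.02 in WT lungs. Its probe set 1457350_at did fall on Day 7 in FP-KO lungs, by 0.83 ± 0.28 (adjusted p = 0.0415), with -0.31 in WT lungs (adjusted p = 0.443). Between Day 7 and Day 14 it rose in FP-KO lungs by 1.03 ± 0.28 (adjusted p = 0.0165), as did 1417603_at by 0.84 ± 0.23 (adjusted p = 0.0182), while 1417602_at, which stands for the gene, was at 0.37 (adjusted p = 0.177).

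Per3 encodes the Per protein that the mouse clock needs least. On Day 0, Per3 read 1152, 1009, 1234 and 1016 in the 4 FP-KO lungs and 947, 841, 1511 and 1309 in the 4 WT lungs. On Day 7, Per3 read 599, 385, 748 and 940.5 in FP-KO lungs and 512, 463, 823 and 775 in WT lungs. On Day 14, Per3 read 665, 1128, 1041 and 944 in FP-KO lungs and 773, 584, 613, 816 and 818 in the 5 WT lungs. All Day 7 lungs lay below all Day 0 lungs in both genotypes, and the WT Day 14 lungs did so too, although WT No. 2 on Day 0, at 841, was only just above the highest of them. On Day 7 Per3 fell by 0.79 ± 0.24 in FP-KO lungs (adjusted p = 0.0204) and by 0.84 ± 0.24 in WT lungs (adjusted p = 0.00861). The FP-KO call was lost without Day 0 No. 3 or Day 7 No. 1 or 2. On Day 14 the change was -0.25 ± 0.24 in FP-KO lungs (adjusted p = 0.62) and -0.65 ± 0.23 in WT lungs (adjusted p = 0.0276), and the WT call was lost without WT Day 0 No. 3 or 4 or Day 14 No. 2 or 3, with a mean over all Per3 probe sets, and within WT No. 4 and 5.

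Of the activators, Clock passed in no comparison and Npas2 was too dim to test. On Day 0, Clock read 903, 1155, 800.5 and 828.7 in the 4 FP-KO lungs and 1130.2, 793, 873 and 827 in the 4 WT lungs. On Day 7, Clock read 1135, 959, 782 and 1001 in FP-KO lungs and 1332, 1290.2, 1077 and 1001 in WT lungs. On Day 14, Clock read 1262, 1035, 964 and 777 in FP-KO lungs and 1070.0, 1191, 876, 967 and 1039 in the 5 WT lungs. The groups of different days overlapped in both genotypes, and Clock was the only one of the 9 tested genes with a higher mean on Day 7 than on Day 0. Its Day 7 change was 0.08 ± 0.15 in FP-KO lungs (adjusted p = 0.761) and 0.38 ± 0.15 in WT lungs (adjusted p = 0.0586), and on Day 14 it was 0.12 in FP-KO and 0.19 in WT lungs. With the mouse number as a block, Clock passed in WT lungs on Day 7. The other 3 Clock probe sets gave -0.18 to -0.05 in FP-KO and -0.33 to 0.05 in WT lungs on Day 7, and none passed.

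Npas2 lay below the array median on all 25 arrays. On Day 0, Npas2 read 34.1, 63.4, 24.3 and 24.3 in the 4 FP-KO lungs and 49.5, 39.7, 32.7 and 38.5 in the 4 WT lungs. On Day 7, Npas2 read 29.1, 42.3, 24.3 and 31.2 in FP-KO lungs and 42.9, 50.5, 24.7 and 61.4 in WT lungs. On Day 14, Npas2 read 77.7, 42.1, 24.3 and 44.0 in FP-KO lungs and 67.5, 44.1, 24.3, 49.0 and 40.7 in the 5 WT lungs. The value 24.3 is the floor, which 5 of the 25 lungs reached, so differences of Npas2 are bounds at best. When dim genes were tested as well, its adjusted p lay between 0.435 and 1 over the 11 comparisons.

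The output regulators Dbp, Hlf and Tef, which encode related leucine-zipper activators, all fell on Day 7 in both genotypes. On Day 0, Dbp read 6679.7, 4815, 7741 and 7146 in the 4 FP-KO lungs and 4619.5, 6254, 8342 and 6526 in the 4 WT lungs. On Day 7, Dbp read 3035, 2364, 3508 and 4683 in FP-KO lungs and 1421, 1321, 4567 and 4304 in WT lungs. On Day 14, Dbp read 3097, 4224, 4473 and 4593 in FP-KO lungs and 3249, 2085, 2429, 3832 and 3833 in the 5 WT lungs. Day 7 and Day 14 lungs lay below Day 0 lungs without overlap in both genotypes, where on Day 14 the groups of 9.87% of all genes had no overlap in FP-KO and of 28.5% in WT lungs, and WT No. 1 and 2 on Day 7 were the lowest of all 25. Dbp fell on Day 7 by 0.98 ± 0.33 in FP-KO lungs (adjusted p = 0.0356) and by 1.35 ± 0.33 in WT lungs (adjusted p = 0.00281). On Day 14 the change was -0.68 ± 0.33 in FP-KO lungs (adjusted p = 0.263) and -1.07 ± 0.31 in WT lungs (adjusted p = 0.0097). The WT Day 14 call was lost within WT No. 4 and 5 (-0.72, adjusted p = 0.248), and the FP-KO Day 7 call without Day 0 No. 1, 3 or 4 or Day 7 No. 1, 2 or 3, with a common median and without the filter on dim genes. Its residual SD of 0.51 was larger than that of 97.2% of all genes tested.

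Hlf encodes hepatic leukemia factor, which binds the same D-box sequences as DBP. On Day 0, Hlf read 1100.0, 876, 1016 and 1129 in the 4 FP-KO lungs and 1101, 1177, 1226 and 979.9 in the 4 WT lungs. On Day 7, Hlf read 464, 517, 616 and 576 in FP-KO lungs and 415, 378, 713 and 573 in WT lungs. On Day 14, Hlf read 527, 862, 782 and 747 in FP-KO lungs and 414, 404, 388, 556 and 729 in the 5 WT lungs. Day 7 and Day 14 lungs lay below Day 0 lungs in both genotypes, without overlap. On Day 7 Hlf fell by 0.93 ± 0.20 in FP-KO lungs (adjusted p = 0.00192) and by 1.15 ± 0.20 in WT lungs (adjusted p = 0.000107). On Day 14 the change was -0.51 ± 0.20 in FP-KO lungs (adjusted p = 0.154), and in WT lungs Hlf fell by 1.21 ± 0.19 (adjusted p = 3.26e-05). Leaving out any 1 lung, or either Day 14 set, kept the WT calls of both days.

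Tef encodes thyrotroph embryonic factor, the other close relative of DBP. On Day 0, Tef read 4567, 4136, 4613 and 4248 in the 4 FP-KO lungs and 4281, 4839, 4498 and 4868 in the 4 WT lungs. On Day 7, Tef read 2313, 1985, 3099.8 and 3555 in FP-KO lungs and 2039.7, 2203, 2833 and 2491 in WT lungs. On Day 14, Tef read 4897, 6165, 4281 and 4364 in FP-KO lungs and 3976, 3688, 4063, 3186 and 3408 in the 5 WT lungs. The Day 7 lungs lay below those of Day 0 in both genotypes. All WT Day 14 lungs also lay below all WT Day 0 lungs, where the groups of 28.5% of all genes had no overlap. By Day 14 all lungs of both genotypes lay above the Day 7 lungs of their genotype, where the groups of 19.6% of all genes in FP-KO and 11.3% in WT lungs had no overlap, and all FP-KO lungs lay above all WT lungs. Tef fell on Day 7 by 0.72 ± 0.15 in FP-KO lungs (adjusted p = 0.00141) and by 0.96 ± 0.15 in WT lungs (adjusted p = 3.06e-05). On Day 14 against Day 0 Tef changed by 0.15 ± 0.15 in FP-KO lungs (adjusted p = 0.618). In WT lungs Tef changed by -0.34 ± 0.14 (adjusted p = 0.0596, and 0.0446 in the fit without FP-KO Day 14 No. 2). Between Day 7 and Day 14 it rose by 0.87 ± 0.15 in FP-KO lungs (adjusted p = 0.00072) and by 0.62 ± 0.14 in WT lungs (adjusted p = 0.014), and the WT call was lost without WT Day 7 No. 1 or 2, within WT No. 4 and 5 (0.47, adjusted p = 0.344) and with a mean over the Tef probe sets (0.27, adjusted p = 0.265). With the brightest probe set for each gene, Tef was the only gene of the 9 to rise between Day 7 and Day 14 in WT lungs, where 3.56% of all genes rose, and 1 of 3 in FP-KO lungs, with Nr1d1 and Per1, where 10.7% of all genes rose. Over the 9 genes the median difference between Day 14 and Day 7 was 0.41 in FP-KO and 0.19 in WT lungs.

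**Figure D2:**
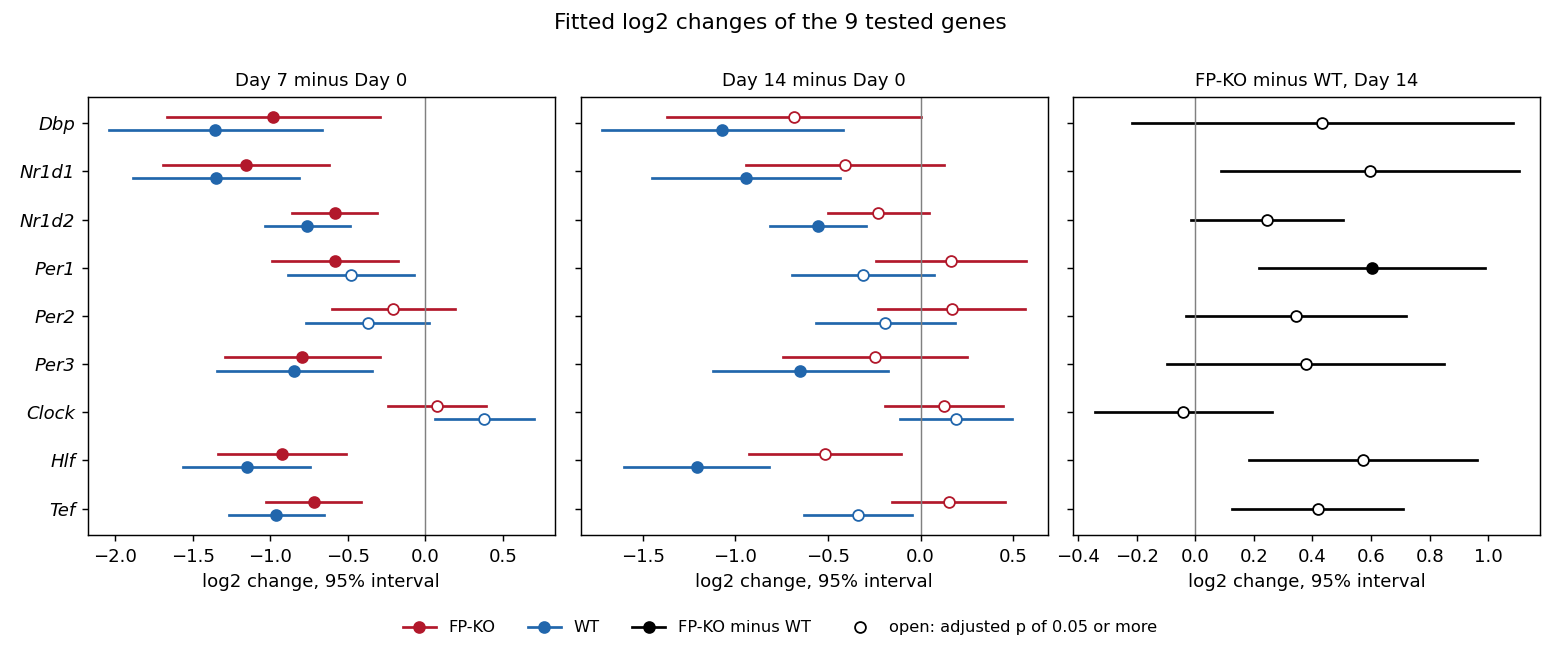
Fitted log2 changes of the 9 tested genes with 95% intervals, FP-KO in red and WT in blue, on Day 7 and on Day 14 against Day 0, and FP-KO minus WT on Day 14 in black. Filled points have an adjusted p under 0.05: 7 FP-KO and 6 WT genes on Day 7, 0 FP-KO and 5 WT genes on Day 14, and Per1 in the genotype difference.

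In the order of the 6 group means most neighbours lay closer than the larger of their SDs. For Hlf the means were 1121 ± 107 (WT Day 0), 1030.4 ± 113 (FP-KO Day 0), 729.6 ± 143 (FP-KO Day 14), 543 ± 66.6 (FP-KO Day 7), 519 ± 154 (WT Day 7) and 498 ± 146 (WT Day 14; SD, n = 4 or 5). Of its 5 neighbouring pairs, 2 lay further apart than their SD, FP-KO Day 0 over FP-KO Day 14 and FP-KO Day 14 over FP-KO Day 7. For Tef the order ran from FP-KO Day 14 (4927 ± 869.5) over WT Day 0 (4621 ± 282), FP-KO Day 0 (4391 ± 235), WT Day 14 (3664 ± 371) and FP-KO Day 7 (2738 ± 718) to WT Day 7 (2391 ± 348). The gaps on both sides of WT Day 14 exceeded the SD. Dbp had 1 such gap, between WT Day 0 (6435 ± 1525) and FP-KO Day 14 (4097 ± 684). Nr1d2 had 2, Per1 and Per3 had 1 each, and Nr1d1, Per2, Clock and Npas2 had 0.

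The genotypes were compared directly on each day. On Day 0 and on Day 7, 0 of 9 genes differed in the limma test, with 0 at an unadjusted p under 0.05, and 0.0166% of all genes passed on each of these days. On Day 0 the differences lay between -0.12 and 0.13. On Day 7 they lay between -0.28 (Clock) and 0.42 (Dbp). On Day 14 they lay between -0.04 (Clock) and 0.60 (Per1), 8 of 9 were above 0, and their median was 0.42 against -0.0022 over all genes. Per1 alone passed, at 0.60 ± 0.19 (adjusted p = 0.0402), where 4.89% of all genes were higher in FP-KO lungs. The next were Hlf at 0.57 ± 0.19 (adjusted p = 0.0531), Tef at 0.42 ± 0.14 (adjusted p = 0.0578) and Nr1d1 at 0.60 ± 0.25 (adjusted p = 0.121). Tef alone had no overlap between the genotypes, which 11% of all genes showed. In the fit over all probe sets, where the adjustment runs over more tests, Per1 did not pass (adjusted p = 0.0545), and the dimmer Hlf probe set 1434735_at alone of 23 was higher in FP-KO lungs, by 0.67 ± 0.17 (adjusted p = 0.0183), where 2.99% of all tested probe sets were higher.

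The Per1 difference rests on few lungs. Without FP-KO Day 14 No. 2, whose Per1 value of 2014 is the highest of all 25 lungs, the difference was 0.43 (adjusted p = 0.205) and 0 of the 9 genes passed. The call was lost in 12 of 38 recomputations, among them those without FP-KO Day 14 No. 1, without WT Day 14 No. 2, 4 or 5, with the values as deposited, without the filter on dim genes, and with the mouse number as a replicate block (0.55, adjusted p = 0.0774). Fits without a Day 0 or Day 7 lung are also among the 38. They can act on this call only through the spread shared by all groups. Whether the change from Day 0 differed between genotypes was tested as an interaction, and 0 of 9 genes passed on Day 7 (0 at an unadjusted p under 0.05, and 0% of all genes passed) and 0 on Day 14 (2 at an unadjusted p under 0.05, and 3.12% of all genes passed). The lead on Day 14 was Hlf, at 0.69 ± 0.27 (adjusted p = 0.161), followed by Tef at 0.49 ± 0.20 (adjusted p = 0.188). With the mouse number as a replicate block the Day 14 interaction passed for Hlf (0.84 ± 0.23, adjusted p = 0.0412, where 4.89% of all genes passed), and with array weights it did so too (0.86 ± 0.24, adjusted p = 0.0337, where 8.34% passed). The other 8 genes passed in neither. The block in effect leaves out WT Day 14 No. 5, the only lung of that number. Its Hlf of 729 was the highest of its group. Within FP-KO No. 1 and 2 and WT No. 1 to 3 the Hlf interaction was 0.87 ± 0.28 (adjusted p = 0.0805). Within the other set it was 0.39 ± 0.28 (adjusted p = 0.717), and without FP-KO Day 14 No. 2 it was 0.61 ± 0.28 (adjusted p = 0.319). In the fit without a block or weights, the loss of calls by Day 14 in FP-KO lungs is not shown to differ from the WT course for any of the 9 genes.

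The Day 14 lungs were then read set by set. Within the FP-KO lungs, No. 1 and 2 did not overlap No. 3 and 4 in 5 of 9 genes, with Nr1d1, Per1, Clock and Tef higher and Dbp lower in No. 1 and 2, where 54.8% of all genes did not overlap. Within the WT lungs, No. 1 to 3 did not overlap No. 4 and 5 in 5 of 9 genes, with Tef higher and Dbp, Per2, Per3 and Hlf lower in No. 1 to 3, where the share of all genes was 47.7%. Taking both genotypes together, the sets overlapped in all 9 genes, and 18.3% of all genes had no overlap. These counts are near the background, and over both genotypes below it. The median size of the set difference was 0.33 in FP-KO and 0.34 in WT lungs over the 9 genes, against 0.22 in FP-KO and 0.19 in WT lungs over all genes. No test was made, because the split was seen in these data. Hours of collection are not given in the sources used here, so time of day cannot be told apart from any other difference between the sets.

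Within the set of FP-KO No. 1 and 2 and WT No. 1 to 3 the WT fall on Day 14 was called in 5 genes (Dbp, Nr1d1, Nr1d2, Per3 and Hlf), where 44.5% of all genes passed in either direction, and within the other set in 3 (Nr1d1 at -1.02, Nr1d2 at -0.51 and Hlf at -0.81), where 20.6% passed in either direction. Both shares count rises with falls, and the share that fell was not taken within a set. In the set with FP-KO No. 1 and 2 the genotype difference passed for Per1 (0.82 ± 0.24, adjusted p = 0.0377) and Hlf (0.75 ± 0.22, adjusted p = 0.0426), where 9.51% of all genes passed. In the set with FP-KO No. 3 and 4 it was 0.43 ± 0.24 for Per1 (adjusted p = 0.567) and 0.26 ± 0.23 for Hlf (adjusted p = 0.776), with 0 of 9 genes called and 0.0166% of all genes passing.

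**Figure D3:**
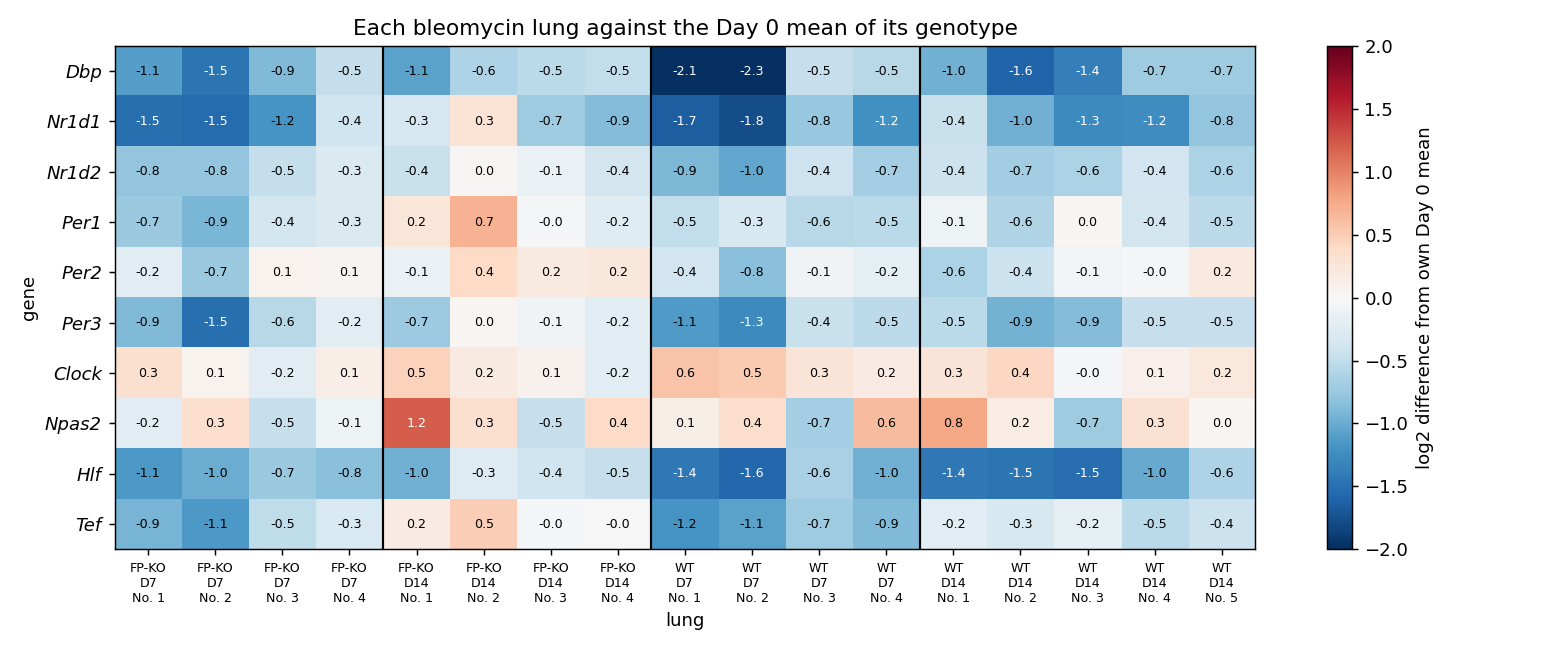
The log2 difference of each bleomycin lung from the Day 0 mean of its genotype, for the 10 genes (rows) in 17 lungs (columns), blue for lower and red for higher. The deepest values are those of Dbp in the first pair of WT Day 7 columns, and the column of FP-KO Day 14 No. 2 is above 0 in 8 of the 10 genes.

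Lungs of 1 group differed in how far the genes had fallen. Relative to the Day 0 mean of its genotype, the median over the 9 genes was -0.88, -0.99, -0.50 and -0.29 in FP-KO Day 7 No. 1 to 4, and -1.13, -1.07, -0.46 and -0.55 in WT Day 7 No. 1 to 4. On Day 14 it was -0.34, 0.18, -0.08 and -0.24 in FP-KO No. 1 to 4 and between -0.69 and -0.44 in the WT lungs. Mice No. 1 and 2 thus held the lower Day 7 values in both genotypes. For 7 of 9 genes (Dbp, Nr1d1, Nr1d2, Per2, Per3, Hlf and Tef) the lowest 2 of the 4 Day 7 lungs were No. 1 and 2 in FP-KO and again in WT, an order that 8.91% of all genes tested share. In WT lungs Clock and Per1 ran the other way. This order was noticed after the values were seen and was not tested. The labels name no litter, batch or hour for a mouse number.

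Other measures move with that order. The summed intensity of 4 macrophage markers (Cd68, Msr1, Mrc1 and Marco) on Day 7 was 7077, 6675, 6219 and 5223 in FP-KO No. 1 to 4, and 7683, 8651, 7485 and 6975 in WT No. 1 to 4. The sum of 4 fibroblast markers (Col1a1, Pdgfra, Tcf21 and Inmt) was 28144, 30994, 36268 and 38295 in the same FP-KO lungs, and 29149, 28564, 38545 and 33992 in the WT lungs. Lungs No. 1 and 2 thus had the higher macrophage and the lower fibroblast sums within each genotype, and their endothelial and muscle sums were also the lower ones. The muscle sum was 5501, 5138, 8194 and 7387 in FP-KO No. 1 to 4 and 5029, 5049, 7829 and 8096 in WT No. 1 to 4. Signs of RNA quality and brightness split the same lungs. The ratio of the 3′ to the 5′ probe sets of Actb was 1.26, 1.18, 1.35 and 1.35 in FP-KO No. 1 to 4 and 1.23, 1.23, 1.28 and 1.32 in WT No. 1 to 4. In both genotypes the 18S reading was higher, and the median intensity of the array lower, in No. 1 and 2 than in No. 3 and 4. The part of cell makeup and of RNA quality in the clock gene values was not tested.

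Between groups the markers moved as well. Over all genes on Day 7, 12.6% rose and 10.7% fell in FP-KO and 17.1% rose and 18% fell in WT lungs. On Day 14, 1.85% rose and 1.41% fell in FP-KO and 19.1% rose and 19.5% fell in WT lungs. Between Day 7 and Day 14, 10.7% rose in FP-KO and 3.56% in WT lungs. Fewer calls in FP-KO than in WT lungs against Day 0 are thus seen over all genes too. Macrophage markers passed as higher in 3 of 4 in FP-KO and 4 of 4 in WT lungs on Day 7, and in 1 of 4 in FP-KO and 3 of 4 in WT lungs on Day 14. Their sum lay between 3124 and 3620 on Day 0, 5223 and 7077 on Day 7 and 3065 and 5844 on Day 14 in FP-KO lungs, and between 2781 and 3662 on Day 0, 6975 and 8651 on Day 7 and 6190.3 and 7815 on Day 14 in WT lungs. All 3 alveolar type 1 markers (Ager, Hopx and Rtkn2) passed as lower on Day 7 in FP-KO and in WT lungs, and between Day 7 and Day 14 they rose in 3 of 3 in FP-KO and 2 of 3 in WT lungs. Of the 4 fibroblast markers, Tcf21 and Inmt fell and Col1a1 rose on Day 7 in both genotypes, and of 2 ciliated markers Tppp3 fell in both. The Actb ratio ran from 1.31 to 1.55 on Day 0 and from 1.18 to 1.35 on Day 7 in FP-KO lungs, and from 1.34 to 1.62 on Day 0 and from 1.23 to 1.32 on Day 7, without overlap, in WT lungs. On Day 14 it ran from 1.38 to 1.56 in FP-KO and from 1.21 to 1.40 in WT lungs. Endothelial markers (Pecam1, Cdh5, Kdr and Tek) passed as lower in 3 of 4 in FP-KO and 2 of 4 in WT lungs on Day 7, and in 0 of 4 in FP-KO (limma, 0 at an unadjusted p under 0.05) and 2 of 4 in WT lungs on Day 14. Of 5 cardiac and skeletal muscle markers, 0 passed in FP-KO lungs on either day (limma, with 2 on Day 7 and 0 on Day 14 at an unadjusted p under 0.05), while 4 fell on Day 7 and 5 on Day 14 in WT lungs. Their sum ran from 6045 to 10201 on Day 0 and from 5566 to 11237 on Day 14 in FP-KO lungs, and from 9986 to 14321 on Day 0 and from 3667 to 4769 on Day 14 in WT lungs. Of the 4 adipocyte markers Plin1 and Ucp1 were too dim to test, and the sum of Adipoq and Cidec on Day 14 was 701.6 to 1703 in FP-KO and 391.1 to 726.5 in WT lungs. FP-KO Day 14 No. 2, with the highest Per1, Nr1d1, Nr1d2, Per2, Per3, Hlf and Tef of its group, had the lowest macrophage sum (3065) and the highest muscle sum (11237) of that group. The part of these tissues and of the Actb ratio in the clock gene changes was not tested.

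Deviations from the group means were correlated between the genes over the 25 arrays as a description, since the arrays share their normalization and all RNA of a lung. Dbp went with Per3 (Pearson 0.82, Spearman 0.85), with Hlf (0.77 and 0.77) and with Nr1d2 (0.74 and 0.68), and Nr1d2 with Per3 (0.81 and 0.77). Clock went against Dbp (-0.57 and -0.53) and with Npas2 (0.54 and 0.52). Per1 went with Tef (0.64 and 0.58) but not with Dbp (-0.02 and -0.04). Over the 16 arrays of Day 0 and Day 7 alone, Dbp with Tef was 0.70, and over the 9 arrays of Day 14 it was -0.39. The genes most like Dbp over the same 25 deviations were Cx3cl1 (0.86), Fgfr2 (0.86), Trim34a (0.855), Elovl1 (0.85) and Maob (0.845). For Per3 they were led by Fmo1 (0.89), for Hlf by Tspan13 (0.87), for Tef by Ltbp4 (0.89), for Nr1d1 by Mapt (0.88), for Nr1d2 by Trpm6 (0.87), for Per2 by Ttc17 (0.84), for Per1 by Zfp629 (0.79), for Npas2 by E430024I08Rik (0.74) and for Clock by Dennd4c (0.735).

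Most genes are read by several probe sets, and these did not always move together. Of the 23 tested probe sets of the 9 genes, 12 fell in FP-KO and 12 in WT lungs on Day 7, in a limma fit over all probe sets with 1 symbol, where 8.1% of all tested probe sets fell in FP-KO and 14.3% in WT lungs. On Day 14, 0 fell in FP-KO lungs (at an unadjusted p under 0.05, 2 were lower and 1, Per3 1460662_at, was higher) and 10 in WT lungs, where 0.855% of all tested probe sets fell in FP-KO and 17.2% in WT lungs. Both Dbp probe sets and both Hlf probe sets passed on Day 7 in each genotype and on Day 14 in WT lungs. The 3 Tef probe sets differed on Day 14. In WT lungs 1438033_at fell by 1.59 ± 0.31 (adjusted p = 0.000386), while 1424175_at, which stands for the gene, was at -0.34 and 1450184_s_at at 0.27, neither of which passed. For Per3, 1441445_at fell on Day 7 by 0.81 ± 0.28 in FP-KO and 1.33 ± 0.28 in WT lungs, while against Day 0 the dim 1460662_at passed on neither day and 1421087_at passed in WT lungs on Day 7 alone. Between Day 7 and Day 14, 8 of the 23 rose in FP-KO lungs and 3 in WT lungs, where 8.62% of all tested probe sets rose in FP-KO and 2.75% in WT lungs. The 3 in WT lungs were 1424175_at of Tef and a pair of Per3. Of that pair, 1460662_at rose by 1.11 ± 0.27 in FP-KO (adjusted p = 0.00855) and by 1.10 ± 0.25 in WT lungs (adjusted p = 0.0194). The other, 1421087_at, rose by 0.57 ± 0.15 in FP-KO (adjusted p = 0.0154) and by 0.65 ± 0.14 in WT lungs (adjusted p = 0.0158). Per1 and Nr1d1 each have 1 probe set, so no other reads their change.

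**Figure D4:**
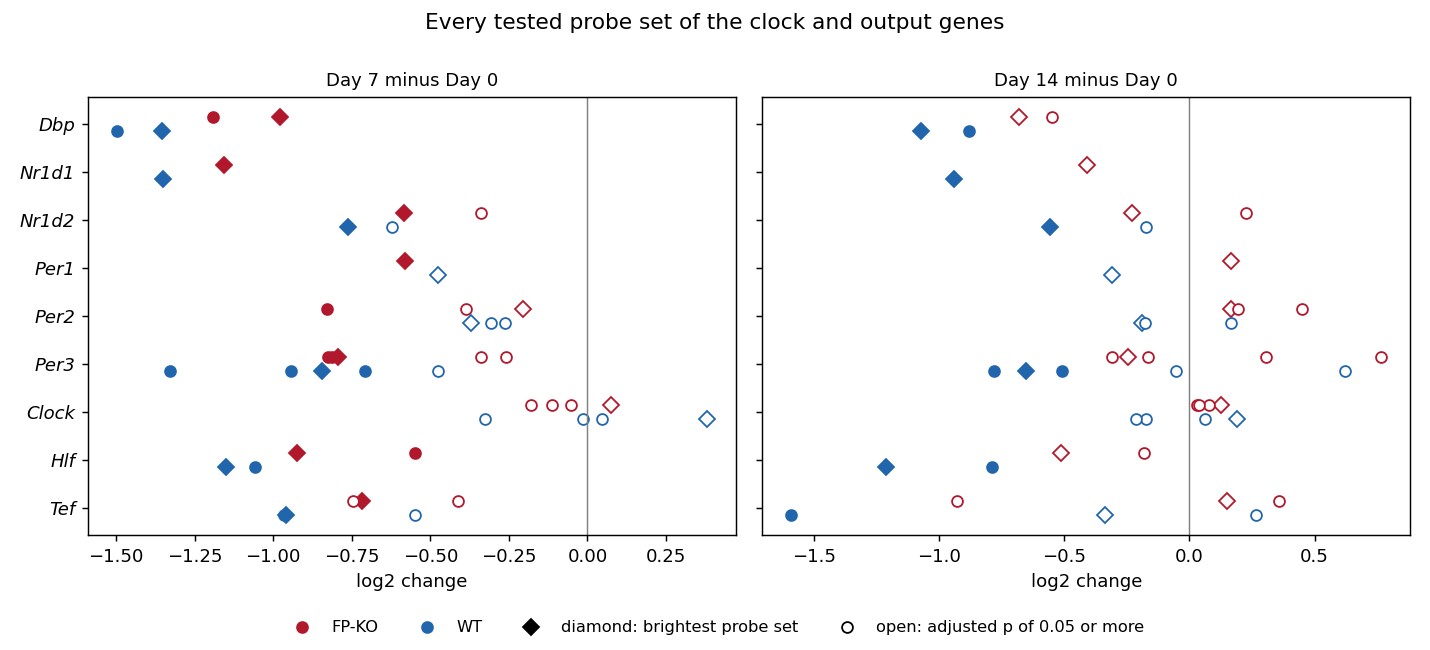
The log2 change of each tested probe set of the 9 genes on Day 7 and on Day 14 against Day 0, FP-KO in red and WT in blue. Diamonds are the brightest probe set of a gene, circles the others, and filled marks have an adjusted p under 0.05. Dbp, Hlf and Tef lie left of 0 on Day 7 in every probe set, and Tef spreads from -1.59 to 0.27 on Day 14 in WT lungs.

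The rest of the clock was read from 10 other clock genes that were bright enough to be tested. On Day 7, 1 rose and 3 fell in FP-KO lungs, where 12.6% of all genes rose and 10.7% fell, and 3 rose and 2 fell in WT lungs, where 17.1% rose and 18% fell. On Day 14, 0 rose and 0 fell in FP-KO lungs (limma, with 1 at an unadjusted p under 0.05), where 1.85% of all genes rose and 1.41% fell, and 3 rose and 4 fell in WT lungs, where 19.1% rose and 19.5% fell. Within WT No. 1 to 3 the Day 14 counts were 3 and 5, and within WT No. 4 and 5 they were 2 and 3, without Nfil3 (0.70, adjusted p = 0.215) and Csnk1e (-0.17, adjusted p = 0.419). Between the 2 sets of Day 14 lungs, over both genotypes, 2 of the 10 genes had no overlap, near the 18.3% of all genes. These were Csnk1d and Csnk1e, the kinases that mark Per proteins for destruction, both lower in No. 1 and 2 of FP-KO and No. 1 to 3 of WT. Csnk1e read 1113 and 1499 in that set of FP-KO and 1001, 1120 and 1025 in that set of WT lungs, and in the other set 1914 and 1802 in FP-KO and 1793 and 1684 in WT lungs. Cry2, a partner of the Per proteins, changed by -0.70 ± 0.11 in FP-KO and -0.93 ± 0.11 in WT lungs on Day 7 (adjusted p = 0.000101 in FP-KO and 1.51e-06 in WT lungs). Rora, the activator that competes with NR1D1 and NR1D2, changed by -0.60 ± 0.16 in FP-KO and -0.68 ± 0.16 in WT lungs (adjusted p = 0.0086 in FP-KO and 0.00201 in WT lungs). Nfil3, a repressor at the D-boxes that DBP, HLF and TEF activate, was 0.64 ± 0.30 in FP-KO lungs (adjusted p = 0.129) and rose by 1.32 ± 0.30 in WT lungs (adjusted p = 0.00159). Bhlhe40 (DEC1), an E-box repressor, rose by 0.59 ± 0.10 in FP-KO and by 0.69 ± 0.10 in WT lungs (adjusted p = 0.000432 in FP-KO and 2.53e-05 in WT lungs).

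Arntl, the partner of CLOCK and the main target of NR1D1, passed in no comparison. On Day 7 it read 249, 377, 169.7 and 234 in FP-KO and 271, 363, 174 and 155 in WT lungs, and on Day 0 it read 196, 259, 136 and 162 in FP-KO and 259, 189, 158 and 189 in WT lungs. The highest Day 7 value of each genotype was that of No. 2, the lung with the lowest Dbp of its group. On Day 14 Arntl read 221, 94.6, 142 and 178 in FP-KO and 163, 229, 223, 157 and 255 in WT lungs. Its Day 7 change was 0.43 ± 0.29 in FP-KO and 0.22 ± 0.29 in WT lungs (adjusted p = 0.285 in FP-KO and 0.596 in WT lungs). On Day 14 the genotypes differed in 4 of the 10 genes, where 10.5% of all genes did. Ciart, a repressor of CLOCK and ARNTL, was higher in FP-KO lungs by 0.88 ± 0.21 (adjusted p = 0.0091) and Cry2 by 0.41 ± 0.10 (adjusted p = 0.014), and Bhlhe40 and Timeless, a gene of DNA replication in mammals, were lower, at -0.40 and -0.39 (adjusted p = 0.0139 and 0.0283). None of these 4 passed within either set of Day 14 lungs. With FP-KO No. 1 and 2 and WT No. 1 to 3, Rora alone of the 10 was called, where 9.51% of all genes passed. Within the other set 0 of the 10 were called, where 0.0166% of all genes passed. The Day 14 interaction passed for Bhlhe40, at -0.54 ± 0.14 (adjusted p = 0.0445).

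Of 10 genes that cycle in many organs, 9 were tested and Por was too dim. On Day 7, 2 rose and 1 fell in FP-KO lungs and 1 rose and 3 fell in WT lungs, and on Day 14, 1 rose and 0 fell in FP-KO lungs and 1 rose and 3 fell in WT lungs. Of all genes, 12.6% rose and 10.7% fell in FP-KO and 17.1% rose and 18% fell in WT lungs on Day 7, and on Day 14 1.85% rose and 1.41% fell in FP-KO and 19.1% rose and 19.5% fell in WT lungs. Klf9, Usp2 and Fmo2 made up the WT falls, at -0.85, -0.67 and -0.61 on Day 7 and -0.81, -0.62 and -0.57 on Day 14. Cdkn1a, which encodes the cell cycle inhibitor p21 and also responds to DNA damage, rose on Day 7 by 1.98 in FP-KO and 2.08 in WT lungs and on Day 14 by 1.47 in FP-KO and 2.14 in WT lungs. On Day 14 Klf9 was higher in FP-KO than in WT lungs by 0.66 ± 0.15 (adjusted p = 0.00748) and Fmo2, a flavin monooxygenase abundant in lung, by 0.62 ± 0.11 (adjusted p = 0.00167), and the interaction passed for Fmo2 at 0.69 ± 0.16 (adjusted p = 0.0231). Both genotype differences were also called within FP-KO No. 1 and 2 and WT No. 1 to 3, where 9.51% of all genes passed. Within the other set 0 of the 9 genes were called, where 0.0166% of all genes passed.

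**Figure D5:**
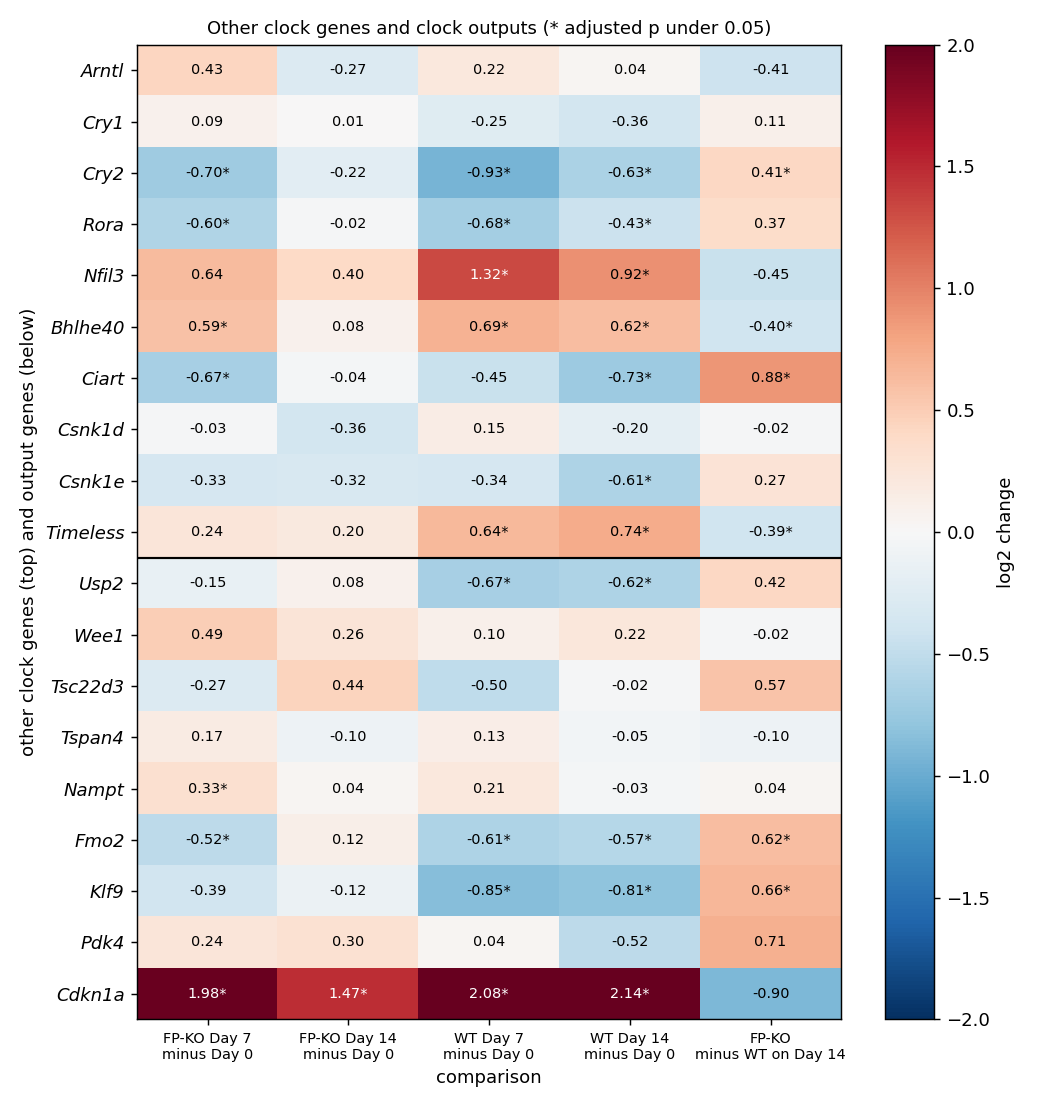
Fitted log2 changes of 10 other clock genes (above the line) and 9 output genes (below it) in FP-KO and WT lungs on Day 7 and Day 14 against Day 0, and FP-KO minus WT on Day 14, with a star where the adjusted p was under 0.05. Cry2 is at -0.70 in FP-KO and -0.93 in WT lungs on Day 7, and on Day 14 the FP-KO column holds a star for Cdkn1a alone.

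Genes that respond to glucocorticoids or to handling were read beside Per1. Klf9 and Tsc22d3 are also among the genes that cycle in many organs, so their calls are counted in both lists. Of 9 glucocorticoid-responsive genes, 3 rose and 0 fell in FP-KO and 3 rose and 2 fell in WT lungs on Day 7, and 1 rose and 0 fell in FP-KO and 3 rose and 2 fell in WT lungs on Day 14. Beside the 18% of all genes that fell on Day 7 and the 19.5% on Day 14 in WT lungs, 2 falls of 9 are near the background, while 17.1% of all genes rose on Day 7 and 19.1% on Day 14 in WT lungs, and 12.6% on Day 7 and 1.85% on Day 14 in FP-KO lungs. The metallothioneins Mt1 and Mt2 and the kinase gene Sgk1 made up the rises of Day 7, with Mt2 at 1.83 ± 0.35 in FP-KO and 2.13 ± 0.35 in WT lungs, and Klf9 and Dusp1 the falls. Fkbp5, Zbtb16 and Ddit4 passed in no comparison, and Tsc22d3 (GILZ) rose between Day 7 and Day 14 in FP-KO lungs, by 0.71 ± 0.23 (adjusted p = 0.0276). On Day 14, 2 of the 9 (Klf9 and Dusp1) were higher in FP-KO lungs, where 4.89% of all genes were. Klf9 alone was also called within FP-KO No. 1 and 2 and WT No. 1 to 3, and 0 of the 9 within the other set. Of 7 tested immediate-early genes, which answer to stress within minutes, 0 passed in FP-KO lungs on either day (limma, with 2 on Day 7 and 1 on Day 14 at an unadjusted p under 0.05), and 2 rose on Day 7 and 3 on Day 14 in WT lungs. Fos, Junb and Egr1 were lower in FP-KO than in WT lungs on Day 14, at -0.83, -0.72 and -1.29, where 5.64% of all genes were lower. These 3 calls held within the set of FP-KO No. 1 and 2 and WT No. 1 to 3, and within the other set their adjusted p lay between 0.578 and 0.751, where 0.0166% of all genes passed. Per1, at 0.60, thus ran opposite to these genes on Day 14, and their part in its difference was not tested.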

How the data were processed

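Lung RNA was measured on 25 arrays. The deposited table holds linear intensities per probe set. With 2% of probe sets trimmed from each tail, the array means average 500 over the 25 arrays. The software that made the deposited values was not given in the sources used here.

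Intensities were floored at 24.3 (the 20th percentile), taken to log2 and quantile-normalized, because array medians spanned 0.432, above a limit of 0.3. The brightest probe set with 1 symbol stood for a gene, and the 12062 of 18193 genes above the array median on at least 4 arrays were tested with limma (version 3.58.1, R 4.3.3) on 6 group means and 11 contrasts, with Benjamini-Hochberg adjustment over those genes. Figures used matplotlib 3.10.9. The fit was tested on simulated data.

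The members and lists were chosen with earlier results of these data known. The members, the genes of the lists and the genes nearest to a member by Pearson correlation of deviations from group means are named. The 2 sets of Day 14 lungs and the order of Day 7 mice were seen in the data.

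Same-numbered FP-KO and WT mice deviated together on Day 0 (correlations of 0.119 to 0.345) and Day 7 (0.141 to 0.221). On Day 14 the correlations were 0.237, 0.195, -0.306 and 0.437. The main fit used no pairing. The replicate block, an alternative fit, gave each mouse number a term shared by both genotypes and all days. WT Day 14 No. 5 alone holds its number, so that term fitted this lung exactly and in effect took it out of every comparison. The block also tied same-numbered mice on Day 14, where their numbers are not shown to pair them. Groups, tests and alternatives followed the sample titles, and leaving out each lung was among them. The counts of list genes within each Day 14 set were added after seeing the data.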

Additional observations from a re-analysis of the deposited data

Results flagged for a closer look

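Among 60 groups of a gene, genotype and day, 2 held a lung far from the others, where chance marks about 1 group in 20. Nr1d1 read 952 in FP-KO Day 0 No. 3, below the other 3 lungs of its group at 1143 to 1184. Nr1d2 read 9460.3 in WT Day 0 No. 2, below the other 3 at 10378 to 10527. In the limma fit without a block or weights, the difference between the genotypes' changes passed for 0 of the 9 genes, with 0 on Day 7 and 2 on Day 14 at an unadjusted p under 0.05.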

How the results depend on the processing

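Of 826 recomputations of 23 called changes, 770 kept the call, 56 lost it and 0 changed direction. With 1 lung left out, 545 kept it and 30 lost it, and with other settings 225 kept it and 26 lost it. Each of the 25 lungs was left out for every comparison. A lung outside the compared groups can act on a call only through the spread shared by all groups. Many kept calls were thus nearly given in advance. The least stable result was the genotype difference on Day 14, with 1 of 9 genes called. It was 0 with the values as deposited, with a common median, without the filter on dim genes, with only the groups of the contrast, and within WT No. 4-5 and FP-KO No. 3-4, 2 with a mean over probe sets, with array weights and within WT No. 1-3 and FP-KO No. 1-2, and 3 with trend and robust variances and with the Day 14 set as a term. Leaving out 1 lung gave 0 to 2 calls, with 0 without FP-KO Day 14 No. 2 or WT Day 14 No. 2 or 4. The FP-KO difference between Day 14 and Day 7 (3 calls) had 6 with a mean over probe sets and 1 with array weights, with only the groups of the contrast and within FP-KO No. 3-4. It ran from 1, without FP-KO Day 14 No. 2, to 5, without FP-KO Day 7 No. 4. The WT difference between Day 14 and Day 7 (1 call) had 0 within WT No. 4-5, and 0 to 1 when a lung was left out, with 0 without WT Day 7 No. 1 or 2. The WT change on Day 14 (5 calls) had 3 within WT No. 4-5 and 4 to 6 when a lung was left out. The FP-KO change on Day 7 (7 calls) ran from 4, without FP-KO Day 0 No. 3 or Day 7 No. 1 or 2, to 7, and the WT change on Day 7 (6 calls) from 6 to 7. The interaction on Day 14 (0 calls) had 1 with array weights and 1 with the replicate block (Hlf). With the mouse number as a replicate block, the genotype difference on Day 14 called Hlf in place of Per1 (0.55, adjusted p = 0.0774), WT Day 7 called Clock as well (7 genes), the FP-KO difference between Day 14 and Day 7 called Nr1d2 in place of Nr1d1, and the other counts did not move. The cause of these differences was not tested, apart from the lungs left out. With 4 or 5 arrays a group, and Npas2 near the floor, small changes were not detectable.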
